A study of Homo sapiens with 6 samples.

Results

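The C/EBP family, its inhibitory relative CHOP and their bZIP partners ATF5 and JDP2 were followed in the breast cancer line MDA-MB-231, an established human line of mesenchymal character that lacks the estrogen and progesterone receptors. The 7 genes, CEBPA, CEBPB, CEBPD, CEBPG, DDIT3 (which encodes CHOP), ATF5 and JDP2, were taken by symbol from 27451 gene rows, each symbol matching 1 row. Cells had received 2 µM of H182, a small molecule that the series title places among STAT3 inhibitors, for 2 h (3 libraries), or the solvent DMSO for the same time (3 libraries). The values were TPM, a transcript abundance in which estimated reads are divided by transcript length and scaled to a fixed total in every library, so levels can be compared between genes and the number of reads behind each value is unknown. Of the 7 genes, 6 reached the mean of 1 TPM over the libraries that was required for testing, and CEBPA did not.

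bZIP proteins bind DNA as pairs held together by a leucine zipper, and the partner decides which sequence is bound and whether transcription is raised or lowered. C/EBP alpha, beta and delta are activators best known from fat, liver and myeloid cells, and in the mouse mammary gland C/EBP beta is needed for normal growth of the epithelium while C/EBP delta is induced through STAT3 during involution. C/EBP gamma lacks an activation domain and pairs with other family members and with ATF4. CHOP has an altered DNA-contacting region, blocks the usual C/EBP sites when it pairs with C/EBP proteins, and is induced through ATF4 when the kinases of eIF2 alpha sense stress. ATF5 is controlled largely at translation by the same kinases, and JDP2, a close relative of ATF3, represses AP-1 sites.

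Promoter sequences from RefSeq (GRCh38.p14) were held for 6 of the 7 genes, CEBPD having no entry. The 250 bases before each annotated start were searched on both strands. The stretches below are shown for their matches. CEBPG and JDP2 held the same 8-base match, the C/EBP-ATF response element TGATGNAA through which C/EBP-ATF pairs act. DDIT3 held matches to the letters searched for a stress element and for the AP-1 element. Capitals mark the match, sequences run 5′ to 3′ on the strand of the gene, and all lie within the GENCODE 29 span of their gene but outside its exons.
CEBPG, chr19:33373963-33374112, plus strand: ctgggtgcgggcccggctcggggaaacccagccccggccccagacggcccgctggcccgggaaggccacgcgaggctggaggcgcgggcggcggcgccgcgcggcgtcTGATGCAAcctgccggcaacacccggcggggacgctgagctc
JDP2, chr14:75427872-75428021, plus strand: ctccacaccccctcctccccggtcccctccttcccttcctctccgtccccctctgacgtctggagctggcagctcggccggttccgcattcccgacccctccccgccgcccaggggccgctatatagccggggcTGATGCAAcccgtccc
DDIT3, chr12:57520518-57520667, minus strand: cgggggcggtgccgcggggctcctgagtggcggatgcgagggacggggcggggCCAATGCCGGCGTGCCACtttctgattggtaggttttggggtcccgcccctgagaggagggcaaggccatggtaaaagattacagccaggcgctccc
DDIT3, chr12:57520744-57520767, minus strand: cgcgcgcgcgcaTGACTCAcccac

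In CEBPG the element ended 35 bases before one of 2 starts in RefSeq, and in JDP2 it ended 9 bases before one of 3. TGATGNAA occurred in 3.14% of the 35116 windows of all genes. DDIT3 held the endoplasmic reticulum stress element, which is in 0.282% of windows, and the AP-1 element TGANTCA, which is in 6.57%. ATF5 held TGANTCA and the C/EBP palindrome TTGCNNAA (9.05% of windows) before its most upstream start. No window of the 6 genes held the cyclic AMP response element TGACGTCA (1.65%), the heat shock pair GAANNTTC (5.78%) or the STAT element TTCNNNGAA (6.57%), and no window of CEBPA or CEBPB held any of the 7 motifs. A match is a string of letters in the sequence and not a measured site.

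H182 was compared with DMSO to ask which of these genes had changed after 2 h. CEBPB, CEBPD, DDIT3 and JDP2 rose at least 2-fold, CEBPG rose by a smaller amount, ATF5 fell slightly in TPM but not under median-of-ratios scaling, and CEBPA stayed below 0.5 TPM in every library. Tests were made with limma on log2(TPM + 1) over 12294 genes with Benjamini-Hochberg adjustment at 0.05, and a gene is said to rise or fall where it passed. All 6 tested members passed, where 24.0% of all tested genes did (14.7% with median-of-ratios scaling). Of them 5 rose, against 5.30% of all tested genes, and 1 fell, against 18.7%. Rises of at least 2-fold were found in 4 of the 6, against 1.30% of all tested genes, and CEBPB reached 4-fold, as did 0.464%. The median change of the 6 was 1.16 on the log2 scale, beside -0.09 over all tested genes. With median-of-ratios scaling, which brings the median of all genes to 0.00, the 5 rises remained and the fall of ATF5 did not (7.91% of all genes were then higher and 6.79% lower, 1.46% at least 2-fold and 0.496% at least 4-fold higher). All libraries of both groups were separate for the 6 tested members, 5 higher and 1 lower, where 8.67% of all tested genes were higher without overlap and 32.7% lower, 41.4% in all.

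**Figure D1:**
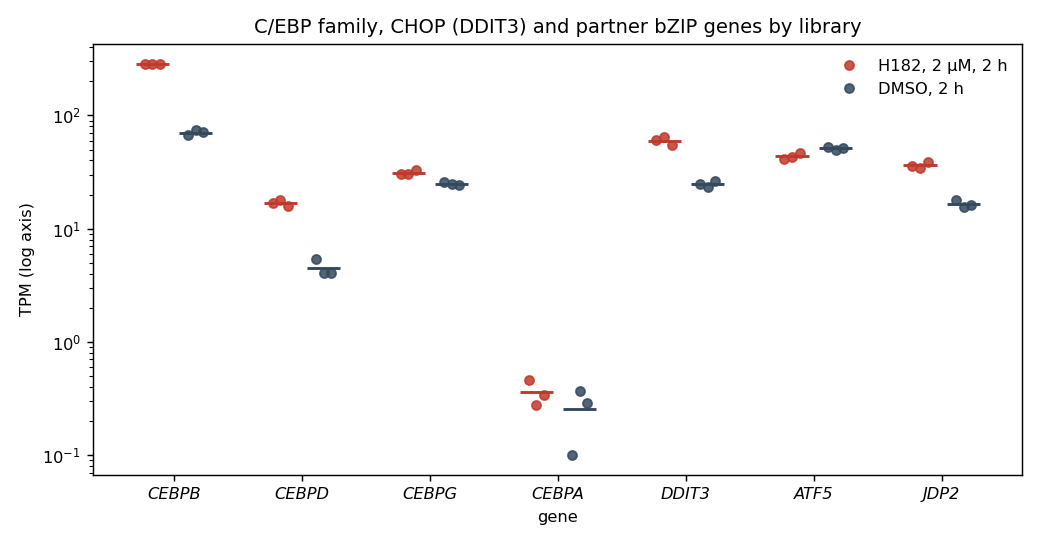
TPM of the 7 genes on a log axis, 1 point per library and a bar at the mean, H182 (red) left of DMSO (blue). CEBPB stands highest in both groups, at 285 TPM in H182 and 70.5 TPM in DMSO, and the points of the groups overlap for CEBPA, which lies below 0.5 TPM throughout.

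CEBPB encodes C/EBP beta, made from 1 mRNA without introns as long activating and short inhibitory forms through different start codons. The gene (ENSG00000172216.5) lies on chromosome 20 at 50190734 to 50192689 of GRCh38, plus strand, as a single exon of 1956 bases. It had 287, 283 and 286 TPM in the H182 libraries, against 66.8, 73.8 and 71.1 TPM in the DMSO libraries. The lowest H182 library was thus far above the highest DMSO library. The mean was 285 ± 1.92 TPM in H182 and 70.5 ± 3.52 TPM in DMSO (SD, n = 3 each), a 4.05-fold ratio, with a log2 change of 2.00 (SE 0.045, limma adjusted p = 1.45e-09). CEBPB ranked at position 57 of 12294 by log2 change, the highest place among the 6 tested members. In difference of level it also led the members, with 215 TPM more in H182. Gene-level TPM does not tell which protein form was made.

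CEBPD encodes C/EBP delta, an acute phase factor with low levels in resting cells. The gene (ENSG00000221869.4) is a single exon of 2178 bases on chromosome 8, 47736909 to 47739086, minus strand. CEBPD had 17.01, 17.82 and 15.90 TPM in H182, against 5.37, 4.10 and 4.07 TPM in DMSO. All H182 libraries were higher. The ratio of means was 3.75 (16.9 ± 0.964 TPM in H182 and 4.51 ± 0.742 TPM in DMSO; log2 change 1.71, SE 0.11, limma adjusted p = 6.04e-06), close to that of CEBPB, but from a level that was lower by more than an order of magnitude. The 95% intervals of the log2 changes of CEBPB (1.90 to 2.10) and CEBPD (1.45 to 1.96) overlapped, and the difference between them was not tested. STAT3 mRNA itself had 63.9 ± 0.847 TPM in H182 and 64.8 ± 1.35 TPM in DMSO (log2 change -0.02, limma adjusted p = 0.779), which says nothing of STAT3 protein or its phosphorylation.

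CEBPG, the partner without an activation domain, changed least among the members that rose. It (ENSG00000153879.8) lies on chromosome 19 at 33373330 to 33382686, plus strand, 70.8 kb from CEBPA, with up to 2 exons per transcript. It had 30.2, 30.2 and 33.0 TPM in H182, against 25.7, 24.9 and 24.5 TPM in DMSO. The groups did not overlap, but the gap between the nearest libraries was small. The log2 change was 0.30 (95% interval 0.16 to 0.45, limma adjusted p = 0.00876), a ratio of 1.24. Median-of-ratios scaling gave 0.40 (adjusted p = 0.00171).

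CEBPA, which drives differentiation and growth arrest in myeloid, fat and liver cells, was nearly absent. It (ENSG00000245848.2) is a single exon of 2631 bases on chromosome 19, 33299934 to 33302564, minus strand. CEBPA had 0.46, 0.28 and 0.34 TPM in H182, against 0.10, 0.37 and 0.29 TPM in DMSO. The groups overlapped (exact two-sided permutation p = 0.5 with 3 against 3 libraries, smallest possible 0.1). When every gene above 0 was tested, its log2 change was 0.12 with a 95% interval of -0.11 to 0.35 (limma adjusted p = 0.514), on a scale that understates changes at such levels. CEBPE, the granulocyte member of the family, lay between 0 and 0.08 TPM in all libraries and was not tested. CEBPZ, a CCAAT-box factor that carries the family name but is no bZIP protein, fell to 75.6 ± 3.12 TPM in H182, against 88.5 ± 5.85 TPM in DMSO (log2 change -0.22, limma adjusted p = 0.0231), which did not hold under median-of-ratios scaling (-0.12, adjusted p = 0.229).

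DDIT3 encodes CHOP. The gene (ENSG00000175197.10) lies on chromosome 12 at 57516588 to 57521737, minus strand, with up to 4 exons per transcript. It had 60.5, 64.3 and 55.2 TPM in H182, against 24.9, 23.2 and 26.6 TPM in DMSO. Every H182 library was at more than the highest DMSO value by a wide margin, although the spread among H182 libraries (SD 4.58) was the largest of the 7 genes. The log2 change was 1.23 (SE 0.074, limma adjusted p = 2.73e-06), a ratio of 2.41. Of the 1307 exonic bases of DDIT3, 355 are also exonic in MARS and 58 in MBD6, genes on the opposite strand, and the strand setting of the counting was not given in the sources used here. MARS had 126 ± 4.26 TPM in H182 and 115 ± 5.31 TPM in DMSO (log2 change 0.13, limma adjusted p = 0.0843), and MBD6 had 18.6 ± 2.89 TPM in H182 and 17.1 ± 1.15 TPM in DMSO. Neither passed in TPM, but MARS did under median-of-ratios scaling (0.23, adjusted p = 0.00951). MARS differed by less than DDIT3 on the log2 scale.

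ATF5, a factor tied to the mitochondrial stress response in mammalian cells, differed in the opposite direction from the other members. The gene (ENSG00000169136.8) lies on chromosome 19 at 49928702 to 49933935, plus strand, with up to 4 exons per transcript. It had 41.0, 43.1 and 46.2 TPM in H182, against 53.0, 49.6 and 51.6 TPM in DMSO. The groups did not overlap, and ATF5 fell in TPM (log2 change -0.24, 95% interval -0.37 to -0.10, limma adjusted p = 0.0192). Relative to the median of all genes the change was -0.14, and the call was lost under median-of-ratios scaling (-0.14, adjusted p = 0.130) and under quantile normalization (-0.16, adjusted p = 0.0850). It was also lost without H182 replicate 1, H182 replicate 2, DMSO replicate 1 or DMSO replicate 3, with adjusted p between 0.0538 and 0.0630 and log2 changes between -0.24 and -0.20, from 5 libraries in place of 6. NUP62, a nuclear pore gene on the opposite strand, shares 626 of the 2954 exonic bases of ATF5, and it fell to 111 ± 2.80 TPM in H182, against 157 ± 3.16 TPM in DMSO (log2 change -0.50, limma adjusted p = 2.84e-05; -0.39 with median-of-ratios scaling). The part of shared reads in the ATF5 values was not tested.

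JDP2, the repressor of AP-1 sites, rose. The gene (ENSG00000140044.12) spans 75427716 to 75474111 of chromosome 14, plus strand, with up to 4 exons per transcript. It had 35.6, 34.3 and 38.9 TPM in H182, against 18, 15.52 and 16.08 TPM in DMSO. The groups were well apart. The log2 change was 1.09 (SE 0.079, limma adjusted p = 1.09e-05), a ratio of 2.19. JDP2 lies between 2 other bZIP genes, FOS, 145 kb before it, and BATF, 48.3 kb after it. FOS, the inducible AP-1 subunit, rose to 150 ± 13.5 TPM in H182, against 4.36 ± 1.11 TPM in DMSO. BATF had a mean of 0.323 TPM in H182 and 0.210 TPM in DMSO and was not tested.

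**Figure D2:**
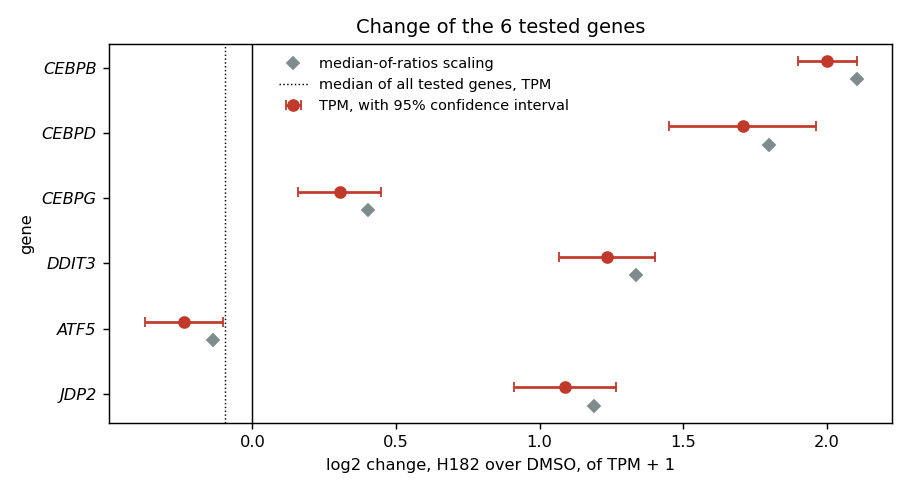
Log2 change of TPM + 1 for the 6 tested genes, with 95% confidence intervals (red), and with median-of-ratios scaling (grey diamonds). The dotted line is the median of all tested genes, -0.09. CEBPB, CEBPD, DDIT3 and JDP2 lie above 1, CEBPG at 0.30, and the interval of ATF5 ends near the dotted line.

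The order of the levels differed between the groups. In H182 it ran CEBPB, DDIT3, ATF5, JDP2, CEBPG, CEBPD and CEBPA, and no neighbours in that order overlapped across their libraries. In DMSO it ran CEBPB, ATF5, CEBPG, DDIT3, JDP2, CEBPD and CEBPA, and CEBPG (25.02 ± 0.613 TPM) and DDIT3 (24.9 ± 1.68 TPM) overlapped. DDIT3 was number 2 in H182 and number 4 in DMSO.

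Because every value of a library shares 1 scaling factor, ratios between members within a library do not depend on it. The C/EBP genes and DDIT3 together had 394 ± 2.90 TPM in H182 and 125 ± 2.03 TPM in DMSO. CEBPB made up 72.6%, 71.6% and 73.3% of that sum in the H182 libraries, against 54.3%, 58.4% and 56.2% in the DMSO libraries. CEBPG made up 7.91 ± 0.476% in H182 and 20.0 ± 0.815% in DMSO, and DDIT3 15.2 ± 1.06% in H182 and 19.9 ± 1.35% in DMSO. The share of DDIT3 was thus lower in H182 although its level was higher. CEBPD made up 4.29 ± 0.215% in H182 and 3.61 ± 0.657% in DMSO, with overlapping libraries, and CEBPA less than 0.3% in every library.

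There were 9.50, 9.38 and 8.66 CEBPB transcripts per CEBPG transcript in H182, against 2.60, 2.97 and 2.90 in DMSO. DDIT3 transcripts numbered 0.211, 0.227 and 0.193 per CEBPB transcript in H182, against 0.373, 0.315 and 0.373 in DMSO, so that the inhibitory relative was scarcer relative to CEBPB in every H182 library. Per CEBPG transcript, DDIT3 had 1.93 ± 0.237 in H182 and 0.996 ± 0.0780 in DMSO. The ATF5 to DDIT3 ratio was below 1 in every H182 library (0.729 ± 0.0944) and above 1 in every DMSO library (2.07 ± 0.108). The JDP2 to CEBPB ratio was 0.127 ± 0.00791 in H182 and 0.235 ± 0.0306 in DMSO. Of the 5 shares and 6 ratios compared, 8 had no overlap between groups and an exact two-sided permutation p of 0.1, the smallest that 3 against 3 libraries can give (0.138 after Benjamini-Hochberg adjustment over the 11). The shares of CEBPD and CEBPA (each p = 0.3 by the exact permutation test) and the CEBPB to CEBPA ratio (exact p = 0.2) had overlapping libraries. The 11 come from the same TPM values of the 7 genes, so they are not independent of each other or of the changes given above. These shares and ratios are of mRNA, and protein pairs were not measured.

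**Figure D3:**
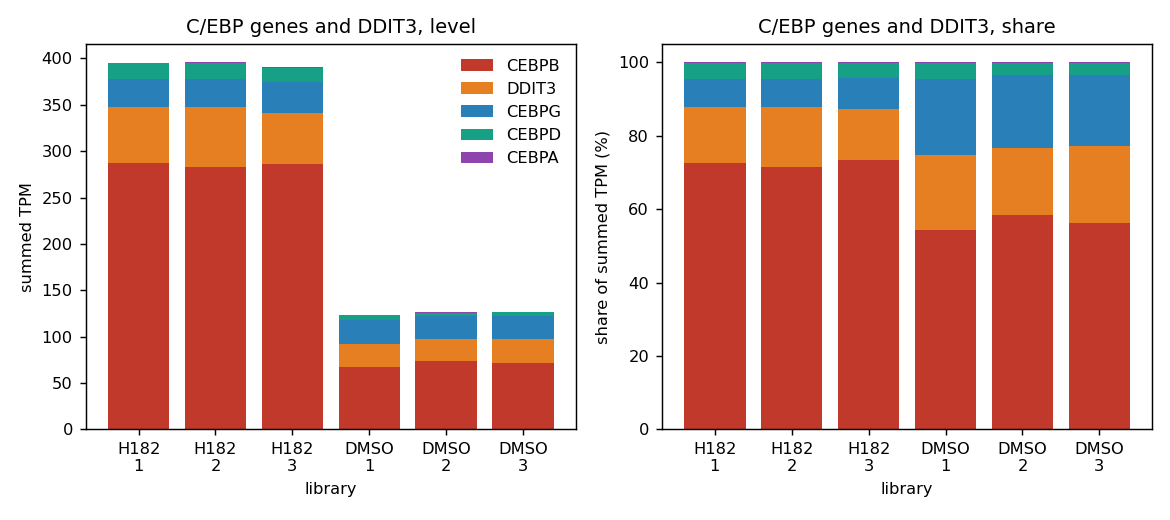
Summed TPM (left) and share of that sum in percent (right) of CEBPB, DDIT3, CEBPG, CEBPD and CEBPA in each library, H182 libraries left of DMSO libraries. The sum is 394 TPM in H182 and 125 TPM in DMSO, and the CEBPB share lies between 71.6% and 73.3% in H182 and between 54.3% and 58.4% in DMSO.

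The other bZIP genes are relatives of the members, and which of their proteins pair with a member was not measured. Of 46 listed, 38 were tested, of which 16 rose, 4 fell and 18 did not pass (18 rose and 2 fell with median-of-ratios scaling), with a median log2 change of 0.21. As shares of the 38 in TPM, 42.1% rose and 10.5% fell, against 5.30% and 18.7% of all tested genes. With median-of-ratios scaling 7.91% of all tested genes rose and 6.79% fell. With the members there were 44 tested bZIP genes, and in order of log2 change CEBPB was number 4, CEBPD 6, DDIT3 10, JDP2 12 and CEBPG 22. FOS (log2 change 4.83), ATF3 (4.62) and FOSB (2.99) came before CEBPB. ATF4, the partner of C/EBP gamma and the inducer of CHOP, had 487 ± 4.66 TPM in H182 and 390 ± 8.97 TPM in DMSO (log2 change 0.32, limma adjusted p = 0.000151), a change close in size to that of CEBPG. ATF3, the closest relative of JDP2, rose to 136 ± 14.7 TPM in H182, against 4.56 ± 0.608 TPM in DMSO, so that ATF3 lay above JDP2 in H182 and below it in DMSO. XBP1, a factor of the endoplasmic reticulum stress response, rose by 1.71 on the log2 scale, and MAFF, a small MAF protein, by 1.41. The 4 that fell were FOSL1 (-0.87), CREBZF (-0.36), TEF (-0.49) and NFE2L3 (-0.15), and median-of-ratios scaling left TEF and NFE2L3 above the threshold of adjusted p.

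**Figure D4:**
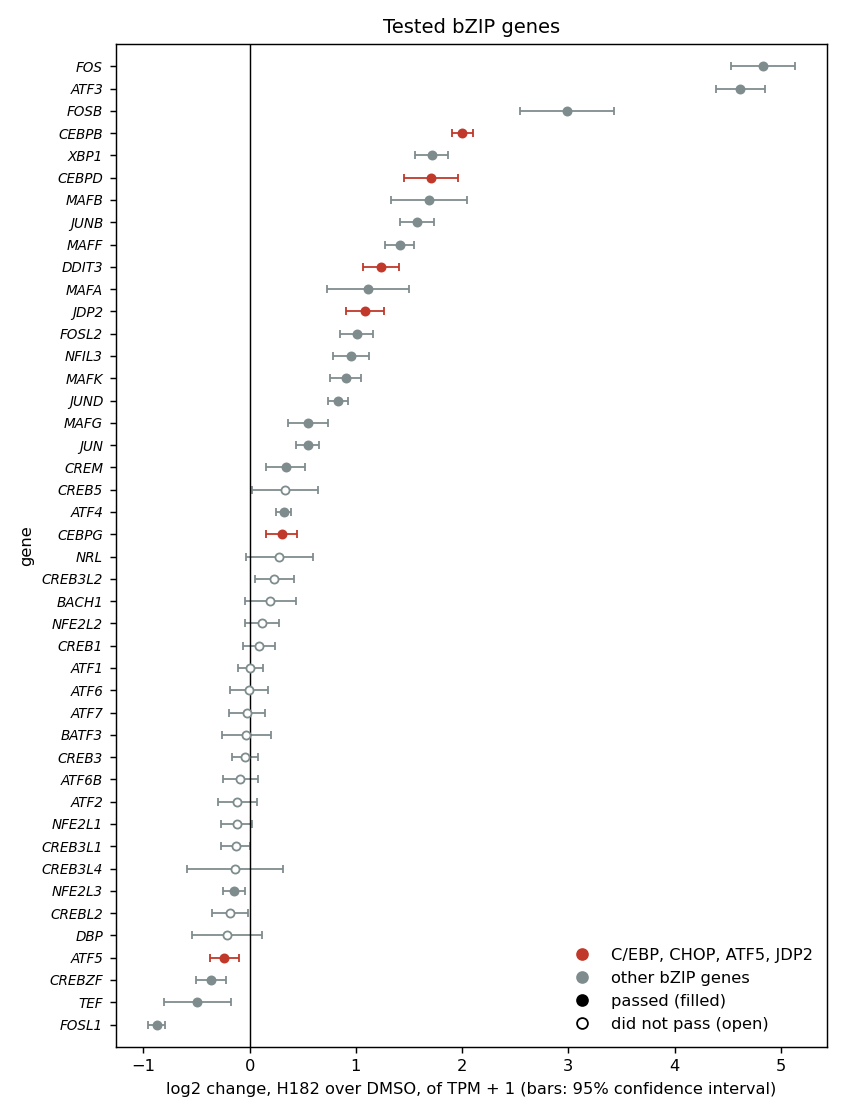
Log2 change of TPM + 1 with 95% confidence intervals for the 44 tested bZIP genes, in order of change; the members are red, filled points passed and open points did not. CEBPB at 2.00 follows FOS, ATF3 and FOSB, and ATF5 at -0.24 lies among the lowest.

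A list of 24 genes known as targets of CHOP or of C/EBP-ATF elements was examined beside the members. It has ATF3 and ATF4 in common with the other bZIP genes, and TRIB3 in common with the regulators below. Whether CHOP or C/EBP proteins acted on the 24 genes here was not tested. Of the 22 tested from this list, 16 rose and none fell (17 and 0 with median-of-ratios scaling), with a median log2 change of 0.71. The rises were 72.7% of the 22, against 5.30% of all tested genes (7.91% with median-of-ratios scaling). Of all tested genes 18.7% fell (6.79% with median-of-ratios scaling). ERO1L was lower at an unadjusted limma p of 0.0350, and without H182 replicate 3 the list held 1 gene that fell. The rises with the lowest p were in DDIT4, an inhibitor of mTORC1 (882 ± 51.4 TPM in H182 and 18.9 ± 1.04 TPM in DMSO), SESN2, a leucine sensor (80.2 ± 3.21 TPM in H182 and 7.39 ± 0.429 TPM in DMSO), ATF3 and CHAC1, which degrades glutathione (122 ± 6.16 TPM in H182 and 6.25 ± 0.922 TPM in DMSO). Among genes that CHOP is known to induce, TRIB3, a pseudokinase, rose by 0.34 on the log2 scale (limma adjusted p = 0.0127), while the oxidase gene ERO1L (-0.14) and the death receptor gene TNFRSF10B (-0.05) did not pass. PPP1R15A, the eIF2 alpha phosphatase subunit GADD34, rose by 1.96, and the BH3-only genes BBC3 and BCL2L11 by 1.30 and 0.74. These 3 were chosen for mention after their values were seen, as were ERO1L and TNFRSF10B.

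Of 22 inflammatory and acute phase genes known to be bound by C/EBP beta or delta, 12 were below a mean of 1 TPM. Of the 10 tested, 5 rose, SERPINA1 fell and 4 did not pass (6 rose and 1 fell with median-of-ratios scaling), with a median log2 change of 0.98. As shares of the 10, 50% rose and 10% fell, against 5.30% and 18.7% of all tested genes. With median-of-ratios scaling 7.91% and 6.79% of all tested genes did so. Those with the lowest p among the rises were the chemokine genes CXCL8 (73.3 ± 5.44 TPM in H182 and 11.1 ± 0.666 TPM in DMSO), CXCL2 and CXCL3 and the cytokine gene IL6 (26.7 ± 2.03 TPM in H182 and 2.52 ± 0.331 TPM in DMSO). PTGS2, cyclooxygenase-2, rose by 1.68 on the log2 scale. The liver-type acute phase genes HP, ORM1 and CRP were listed at 0 in every library, SAA1 had 4.60 ± 1.88 TPM in H182 and 4.42 ± 1.40 TPM in DMSO, and SERPINA1 had 1.22 ± 0.375 TPM in H182 and 2.47 ± 0.120 TPM in DMSO (log2 change -0.66, limma adjusted p = 0.0195). SERPINA1 did not pass without DMSO replicate 3. Many other factors also act on these genes, so their values do not measure C/EBP activity.

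Among 26 regulators of the member proteins or mRNAs, all tested, 4 rose and 11 fell in TPM, with a median log2 change of -0.18, and 5 rose and 4 fell with median-of-ratios scaling. As shares of the 26 in TPM, 15.4% rose and 42.3% fell, against 5.30% and 18.7% of all tested genes. With median-of-ratios scaling 7.91% of all tested genes rose and 6.79% fell. TRIB1, a pseudokinase that brings C/EBP alpha to the ubiquitin ligase COP1, had 19.6, 18.8 and 19.3 TPM in H182, against 7.46, 7.71 and 6.75 TPM in DMSO (log2 change 1.29, limma adjusted p = 5.10e-06). Its relative TRIB2 differed in the other direction, with 17.01 ± 1.87 TPM in H182 and 22.7 ± 2.52 TPM in DMSO (log2 change -0.39, adjusted p = 0.0226 by limma), which did not hold under median-of-ratios scaling. SIAH2, a ubiquitin ligase reported to act on C/EBP delta in breast cells, rose to 24.4 ± 1.32 TPM in H182, against 13.4 ± 0.592 TPM in DMSO. EIF2AK3, which encodes the endoplasmic reticulum kinase PERK upstream of ATF4, rose by 0.47, the amino acid sensing kinase gene EIF2AK4 fell by 0.32 and the cap-binding gene EIF4E fell by 0.27. IRF2BP1, a ubiquitin ligase for JDP2, fell by 0.40.

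The genes whose 6 library values lay nearest to those of each member were found by Euclidean distance of log2(TPM + 1), which weighs level and change together. For CEBPB these were IER5 and ID1 (distances 0.690 and 0.701), for CEBPD PDE4D and OSR2 (0.565 and 0.703), and for DDIT3 CLU and the small MAF gene MAFK (0.339 and 0.495). For JDP2 they were FOXC1 and FBXO32 (0.260 and 0.348), for CEBPG C16orf72 and PHGDH (0.152 and 0.182), and for ATF5 EML4 and NAE1 (0.0778 and 0.0998). With 2 groups of 3 libraries such likeness describes a level and a step and no more.

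Within 100 kb of the members, CEBPB had UBE2V1 and TMEM189 as tested neighbours (log2 changes -0.13, limma adjusted p = 0.0312, and 0.03, not passed), and CEBPD had SPIDR and PRKDC (0.07 and -0.17, neither passed). CEBPG had PEPD (-0.03, not passed), and CEBPA had PEPD and CEBPG. None of the 6 tested neighbours of DDIT3 passed in TPM. Of the 9 of ATF5, PTOV1 (0.18) and ZNF473 (0.39) rose and NUP62 fell. JDP2 had no tested neighbour in that window. Of all tested genes 24.0% passed in TPM, 5.30% rising and 18.7% falling, and their median log2 change was -0.09. The neighbours are too few to set apart from these shares.

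Across the tested genes, libraries correlated at r = 0.9928 to 0.9942 within groups and 0.9787 to 0.9806 between groups, and no library stood apart. Of the mesenchymal markers of the line, VIM had 3585 ± 139.7 TPM in H182 and 4026 ± 24.3 TPM in DMSO, and ZEB1 had 37.9 ± 3.22 TPM in H182 and 37.8 ± 2.25 TPM in DMSO. VIM (log2 change -0.17), CD44 (-0.23), AXL (-0.25) and CAV1 (-0.35) fell in TPM, and VIM did not pass under median-of-ratios scaling while the other 3 did. Of 8 markers of luminal or hormone receptor positive breast cells, ESR1, PGR and CDH1 had means under 0.3 TPM in both groups. The other 5 were expressed, with KRT8 at 428 ± 10.3 TPM in H182 and 482 ± 5.51 TPM in DMSO, KRT18 at 423 ± 18.4 TPM in H182 and 466 ± 8.13 TPM in DMSO, and ERBB2, EPCAM and GATA3 between 6.47 and 29.4 TPM in all libraries. The 8 summed to 868 to 921 TPM in H182 and 990 to 1009 TPM in DMSO. KRT8, KRT18 and GATA3 fell in TPM, and only GATA3 of these passed under median-of-ratios scaling. The part of these markers in the member results was not tested. Of 8 blood cell markers 3 were listed at 0 throughout and CD68 made up most of their sum, which was 140 to 143 TPM in H182 and 147 to 160 TPM in DMSO. Of 6 fat cell markers, ADIPOQ and LEP were at 0, PPARG did not pass, and FABP4 fell to 0.510 TPM in H182, against 3.01 TPM in DMSO (log2 change -1.48, limma adjusted p = 0.00409). All libraries came from 1 established line, and bulk values cannot tell fewer expressing cells from less RNA per cell.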

How the data were processed

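The authors deposited 1 table of TPM per gene for 6 libraries, rounded to 2 decimals. Per the labels' protocols, total RNA was poly-A selected and made into libraries with a stranded Illumina kit. The tools named in the submitters' processing notes are STAR 2.5.0 and RSEM 1.2.25, with GRCh38 as genome build. Annotation, trimming and strand setting are not given in the sources used here. Depth is unknown, so no counting interval was given. Of 27567 rows, 92 spike-in rows at 0 and 24 second rows of genes shared by X and Y were left out. Genes whose mean reached 1 TPM were tested as log2(TPM + 1) with limma 3.58.1 in R 4.3.3 (moderated, mean-variance trend, two-sided), adjusted over all 12294 genes. The same test was also run on data simulated from the means and spreads of these libraries. Shares and ratios were tested by exact permutation. Coordinates come from GENCODE 29 and promoter sequences from RefSeq. Tables and figures were made with Python 3.11.15, pandas 2.3.3 and matplotlib 3.10.9.

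The members and lists were chosen with earlier results of these data known. Genes named beside the members were their relatives, up to 4 genes of each list with the lowest p in each direction, and the 2 nearest genes of each member; others were chosen after their values were seen. Whether the replicates were grown separately is not said in the labels; the p-values then reflect only how far these libraries differ, possibly for technical reasons. The summed level of the mesenchymal marker list is not reported here.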

Additional observations from a re-analysis of the deposited data

How the results depend on the processing

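The rises of CEBPB, CEBPD, CEBPG, DDIT3 and JDP2 passed under all 13 alternatives run (pseudocount, filter, scaling, variance model, replicate block and each library left out), with log2 changes of 1.96 to 2.10, 1.65 to 1.89, 0.26 to 0.40, 1.18 to 1.34 and 1.04 to 1.19. The fall of ATF5 passed in 7 of 13, and the count of members that fell was then 1; it was 0 with median-of-ratios scaling and with quantile normalization, and 0 to 1 with a library left out. With median-of-ratios scaling 2 other bZIP genes and 4 regulators were lower. With a library left out, an alternative added after seeing the data, 2 to 3 other bZIP genes, 4 to 10 regulators, 0 to 1 CHOP targets and 0 to 1 acute phase genes were lower. The counts of lower regulators moved by over 1.5 times without H182 replicate 1 (6), H182 replicate 2 (4), DMSO replicate 2 (6) or DMSO replicate 3 (6), and that of lower bZIP genes without H182 replicate 1, DMSO replicate 2 or DMSO replicate 3 (2 each). Fewer libraries were tested there; other causes were not tested. Deviations from the group mean correlated across genes at r = -0.0130, 0.0025 and -0.0359 for equal replicate numbers. For unequal numbers r lay between -0.0172 and 0.0281. Such values cannot show whether equal numbers shared a culture or day, and the labels do not say. With the replicate block 5 members rose and 1 fell. Depth is unknown, so what it limits for CEBPA and other genes below 1 TPM cannot be stated.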
